A study of Mus musculus with 66 samples.

Results

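The radial glial core genes are 8 genes, Vim, Nes, Fabp7, Ednrb, Lrrn1, Prom1, Cdh2 and Msi1, taken by symbol from a table of normalised counts that holds 24410 gene symbols in 66 libraries.
All 8 symbols were found, and all 8 passed the filter on low values used for testing (a normalised count of at least 10 in at least 2 libraries, which 15714 genes passed).
The question put to them was which of these RNAs are already present in early progenitors and which come later.
The libraries came from mouse embryonic stem cells differentiated into progenitors of the ventral spinal cord, which were fixed in 3% glyoxal, stained, sorted by flow cytometry at 10000 to 15000 cells per population and sequenced as polyadenylated RNA.
The cells were sorted as p1 (called p0-p1 in the series text), p2 or pM (pMN there), the neighbouring progenitor domains that give rise to interneurons (p1, p2) and motor neurons (pM), on day 5, 7, 9 or 11 (D5 to D11), and as negative (NFIAn) or positive (NFIAp) for NFIA, a transcription factor of the switch from making neurons to making glia.
All cultures received 10 ng/ml bFGF from plating, 5 µM CHIR99021 (a GSK3 inhibitor that activates Wnt signalling) on day 2, 100 nM retinoic acid from day 3 to day 5 and 10 nM SAG (an agonist of the hedgehog pathway) from day 3.

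Wild type (WT) gave 37 libraries and a line labelled MUT gave 29.
WT p1, p2 and pM were all NFIAn at D5 and D7, NFIAn in all 3 domains at D9 with an NFIAp fraction beside it in p2 and pM, and NFIAp at D11.
MUT p1, p2 and pM were NFIAn at D5, D7, D9 and D11.
The labels used here name neither the mutated gene nor the number of clones, so no check of a targeted gene was made.
Nfia RNA at D11 averaged 1070 to 1940 normalised counts in the 3 MUT groups and 1460 to 2620 in the 3 WT groups, and Nfib averaged 890 to 1430 in MUT and 2150 to 2840 in WT; the MUT cells had been sorted as negative for NFIA.
Groups held 3 libraries (15 groups), 2 (10 groups) or 1 (MUT D9 p2).
The labels do not say that replicates were separate cultures, so each p-value measures only the spread between these libraries.

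Radial glia are the elongated stem cells that span the wall of the developing neural tube, first dividing at its inner, apical surface to make neurons and later making astrocytes and oligodendrocytes.
They keep an apical junction belt and a long fibre that carries intermediate filaments, and as they mature they take on receptors, lipid carriers and transporters that astrocytes later share.
Vim (vimentin) and Nes (nestin) encode filament proteins of that fibre, and Fabp7 (brain lipid-binding protein) a fatty acid carrier.
Ednrb encodes the endothelin B receptor and Lrrn1 a leucine-rich repeat membrane protein.
Prom1 encodes prominin 1 of apical membrane protrusions, Cdh2 N-cadherin of the adherens junctions, and Msi1 the RNA-binding protein Musashi 1.

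On the mouse genome build GRCm38 the members are annotated as protein-coding genes.
Vim lies at chr2:13573927-13582826 (+) with 4743 exonic bases, and Nes at chr3:87971078-87980451 (+) with 6416.
Fabp7 is the shortest, at chr10:57784881-57788450 (+) with 1250 exonic bases.
Ednrb lies at chr14:103814625-103844402 (-) with 4266 exonic bases and Lrrn1 at chr6:107529768-107570214 (+) with 3700.
Prom1 lies at chr5:43993620-44102032 (-) with 7175 exonic bases, Msi1 at chr5:115429599-115455698 (+) with 5800, and Cdh2 holds 8066 exonic bases.
Prom1, Cdh2 and Msi1 overlap annotated genes with no row in the table (an antisense gene for Cdh2 and Msi1), and whether counting used strand is not given in the sources used here, so reads of an overlapping gene cannot be told apart from theirs.

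The 3 promoters below belong to the members with the largest WT changes outside the filament genes, and are shown because the cells were sorted on NFIA, whose family binds TTGGC, alone or as the palindrome TTGGCNNNNNGCCAA.
They are reference sequence of RefSeq on GRCm38.p6, in the gene's direction and ending just before the transcription start (for Fabp7 at -43, since GENCODE annotates an exon from the next base), with TTGGC or its reverse complement GCCAA in capitals.
Fabp7, chr10:57784673-57784880 (+), bases -250 to -43:
Fabp7: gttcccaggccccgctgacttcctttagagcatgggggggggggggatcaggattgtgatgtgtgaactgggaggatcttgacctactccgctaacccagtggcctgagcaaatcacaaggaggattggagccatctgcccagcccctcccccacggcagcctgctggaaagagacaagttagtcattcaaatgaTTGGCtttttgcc
Ednrb, chr14:103843702-103843951 (-), bases -250 to -1:
Ednrb: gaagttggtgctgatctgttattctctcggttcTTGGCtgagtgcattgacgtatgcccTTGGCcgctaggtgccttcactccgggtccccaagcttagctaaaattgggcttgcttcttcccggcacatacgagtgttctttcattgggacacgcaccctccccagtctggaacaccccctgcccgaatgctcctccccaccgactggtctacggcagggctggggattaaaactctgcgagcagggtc
Lrrn1, chr6:107529476-107529725 (+), bases -250 to -1:
Lrrn1: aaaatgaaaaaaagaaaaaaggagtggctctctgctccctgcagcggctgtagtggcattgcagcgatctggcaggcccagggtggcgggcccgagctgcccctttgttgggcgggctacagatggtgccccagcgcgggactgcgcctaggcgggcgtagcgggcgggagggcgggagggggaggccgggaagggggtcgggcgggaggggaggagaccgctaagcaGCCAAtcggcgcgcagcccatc
Fabp7 held the letters TTGGC once, starting at base -55, Ednrb held them at -217 and -191, and Lrrn1 held GCCAA at -22.
Of the other members with an entry, Vim held TTGGC at -93 and -16, Prom1 held GCCAA at -71 in 1 of its 2 windows, and Nes held neither. The Vim window and that Prom1 window begin inside the gene as GENCODE annotates it.
These 5 letters occur on either strand in 41.5% of the 32851 promoter windows of 250 bases in the table, and the palindrome in 0.0365% of them and in none of the 6 members with an entry.
Such a match is a description of the sequence and was not set against binding data.

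Reads recovered from the normalised counts numbered 24.33 M at the median and between 20.29 and 30.83 M in all libraries but MUT D5 p2 replicate 2, at 8.738 M.
Between 13491 and 15244 genes were detected per library.
In 18 libraries, all those of D7 replicate 3 and of D9 replicates 2 and 3, the summed normalised counts were 26.59 to 40.23 M, above the 17.85 to 25.5 M of the other 48.
Short genes were relatively higher in these libraries: across 15092 genes the log2 difference of D7 replicate 3 from replicates 1 and 2 had a Spearman rho of -0.43 with exonic length, a description across genes, which are not independent.
The members followed the same split, and their spread within groups follows it.
Fabp7 was higher in D7 replicate 3 than in replicates 1 and 2 in 6 of 6 groups, by a median of 1.56 (log2), and Vim in 6 of 6 by 0.48.
The other 6 members were lower there in 6 of 6 groups, Lrrn1 by a median of -1.07, Ednrb by -0.87 and Cdh2 by -0.61.
D11 replicate 2 stood above replicate 3 by a median of 1.46 for Fabp7 and 0.77 for Vim, in 6 of 6 groups each.
Every D11 group held replicates 2 and 3, so WT and MUT at D11 were balanced for it, whereas D5 groups held replicates 1, 2 and 3 except WT pM, which held 2 and 3.

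**Figure D1:**
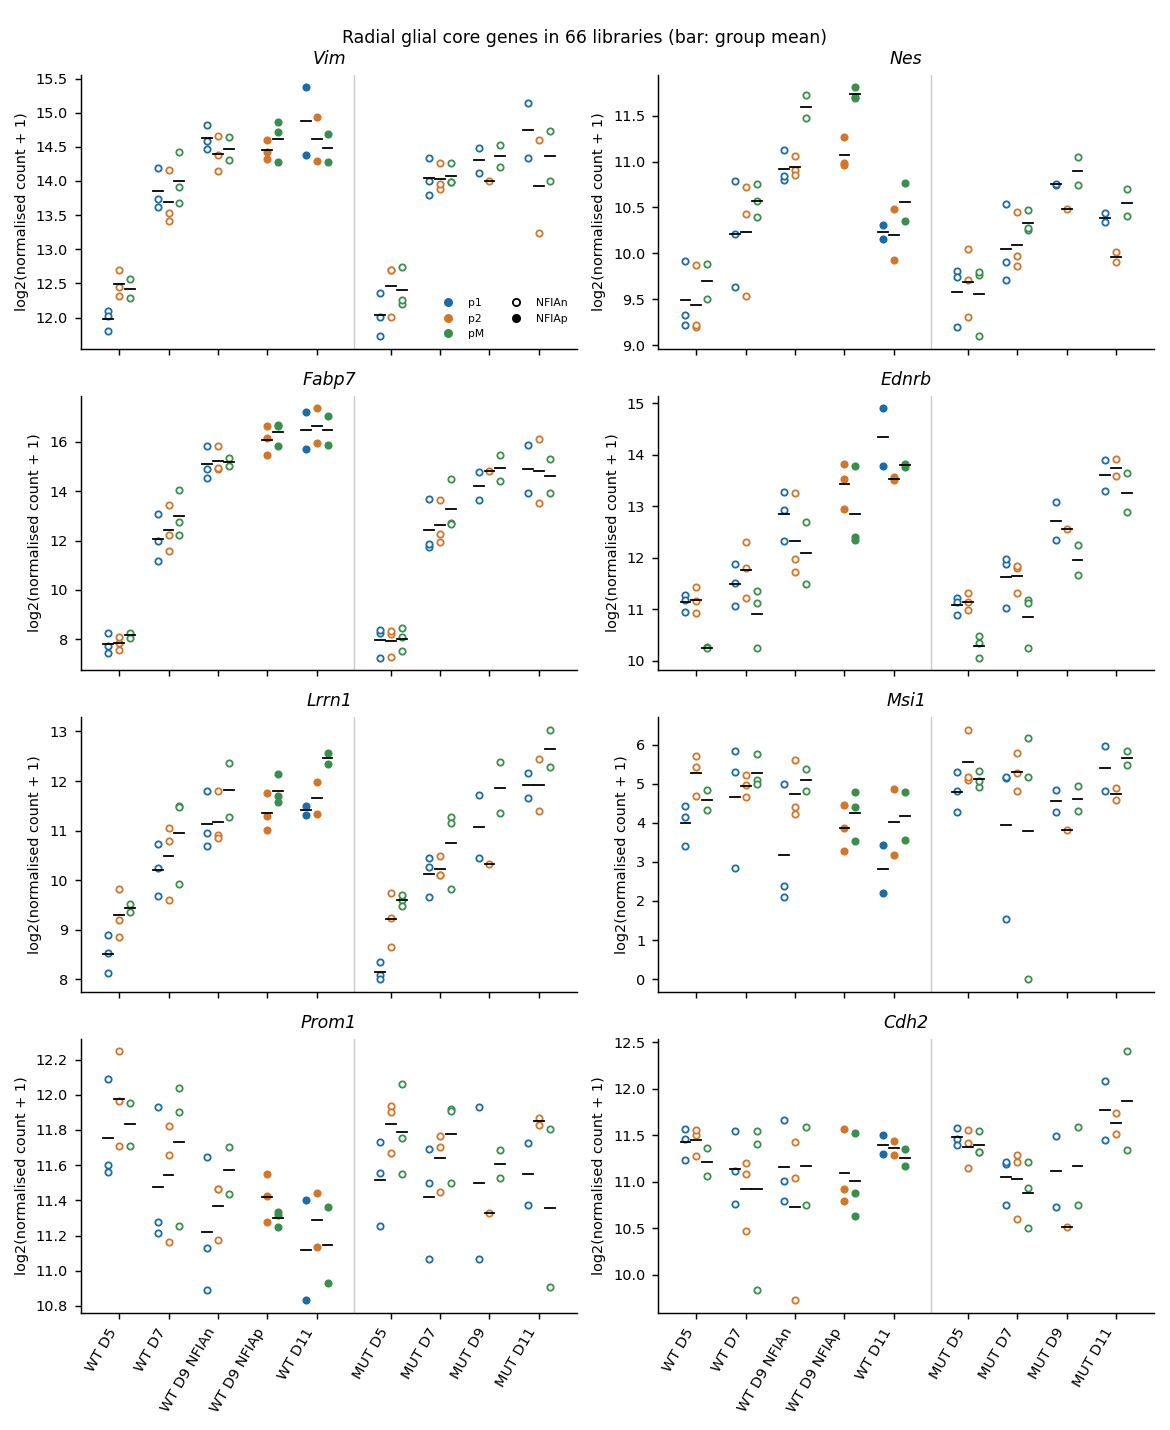
Each panel plots 1 gene as log2(normalised count + 1) in 66 libraries, by genotype, day and gate on the x axis, with colour for the domain, open circles for NFIAn, filled circles for NFIAp and a bar for the group mean. Fabp7 has the widest scale, from near 8 at D5 to above 15 at WT D11, while Prom1 and Cdh2 span about 2 units or less within WT and Msi1 scatters near the floor.

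Between WT D5 and WT D11, Fabp7, Ednrb, Vim and Lrrn1 rose in all 3 domains.
Nes passed the test in p2 and pM and had an adjusted p of 0.051 in p1, and Prom1, Cdh2 and Msi1 did not pass it in any domain.
Thus 4 of 8 members were higher in p1, where 27.7% of the 15714 genes tested were called in either direction and 14% as higher; 5 of 8 were higher in p2, where 25.8% were called and 14.2% as higher, and 5 of 8 in pM, where 20.4% were called and 10.7% as higher.
No member was called lower in this fit, though Prom1 was in alternative fits given below.
Over p1, p2 and pM in turn, the 8 members had a median log2 change of 1.82, 1.45 and 1.46, beside 0, 0.04 and 0.01 over all genes tested.
The WT D11 groups differ from D5 in gate as well as day, so day and NFIA state cannot be told apart in this comparison.
In sorted bulk libraries, fewer cells that make an RNA and less of it per cell cannot be told apart either.

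Markers of other cell types and of the cell cycle changed over the same days, while the summed level of progenitor markers was 20200 to 32900 over the WT D5 groups and 18100 to 39400 over the WT D11 groups.
The summed level of 10 neuron markers (Tubb3, Stmn2 and others) went from 1640 to 12900 over the WT D5 groups to 21700 to 38300 over the WT D11 groups, with 10, 10 and 5 of 10 higher in p1, p2 and pM.
The sum of 8 cell cycle markers went from 70900 to 91700 down to 18300 to 39200, with 8, 5 and 8 of 8 lower.
Mesenchyme markers summed to 156 to 806 at D5 and 1320 to 7470 at D11, with 3, 7 and 4 of 10 higher.
Neural crest and Schwann cell markers summed to 167 to 274 and 388 to 1830, with 7, 6 and 2 of 10 higher; Sox10 rose by 7.37, 6.86 and 7.33 on the log2 scale, whereas Snai2 was at 0 in both WT D11 p1 libraries.
Oligodendrocyte precursor markers, Sox10 again among them, summed to 367 to 2710 and 2760 to 16500, with 3, 3 and 4 of 7 higher (Sox10, Gpr17 and Cnp in all 3 domains, Olig1 in pM) and Pdgfra lower in p1.
The sums of ependymal markers were 9.09 to 80.7 and 61.5 to 309, and those of endothelial markers 43.7 to 251 and 42 to 164. Of the ependymal markers Foxj1 rose by 3.3, 4.92 and 5.84 and was the only one called in p1 and pM, with Rsph1 (3.25) and Mcidas (1.89) also higher in p2. In pM the others tested, Dynlrb2 (1.85), Rsph1 (-1.27), Ak7 (-0.42) and Mcidas (-0.41), did not pass.
Vim is also made by mesenchyme and Ednrb by neural crest; the part of these cells in the members' changes was not tested.

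The members differed in when their RNA came up.
From D5 to D7, averaged over the 3 WT domains, Vim, Nes, Fabp7 and Lrrn1 rose (4 of 8 members, with 19.6% of all genes called and 10% as higher), and Ednrb did not pass the test (0.54 ± 0.23, adjusted p = 0.087).
From D7 to D9 within NFIAn cells, all 5 of these were higher (14.4% of genes called, 6.3% as higher), and the same 5 were higher from D7 to D9 NFIAp cells in p2 and pM (14.8% called, 7.53% as higher).
Of the latter 5, the compared groups alone left 3 called (not Vim or Lrrn1), and leaving out the 18 libraries of high sum left Fabp7 and Ednrb; for D7 to D9 NFIAn, leaving out those 18 left 3 (not Vim or Nes).
The Lrrn1 call to D9 NFIAp was also lost with TMM scaling, in edgeR, without the filter and with an estimated correlation of same-numbered libraries (adjusted p = 0.065, 0.13, 0.053 and 0.056), and to D9 NFIAn with the compared groups alone and that correlation (adjusted p = 0.13 and 0.085).
From D9 NFIAp to D11 NFIAp in p2 and pM, the comparison within 1 gate, Nes alone of the 8 passed, and it fell (10.1% of genes called, 3.98% as lower).
By D7, Vim had made 56.9 to 76.8% of its D5 to D11 log2 change in the 3 WT domains, Lrrn1 50.1 to 58.7% and Fabp7 49.3 to 58.4%, against 11.1 to 25.2% for Ednrb.
By D9 in NFIAn cells the share was 89.7 to 99.7% for Vim, 83.9 to 84.7% for Fabp7 and 78.8 to 90.8% for Lrrn1, and 48.5 to 53.6% for Ednrb.
These shares are ratios of group means on the log2(normalised count + 1) scale and carry no test of 1 gene against another. The D7 means include replicate 3, which stood above replicates 1 and 2 for Fabp7 and Vim (medians of 1.56 and 0.48). For Ednrb and Lrrn1 it stood below them (-0.87 and -1.07). The D9 means carry a like split. Over the D9 groups, replicates 2 and 3 stood above replicate 1 for Fabp7 and Vim (medians of 0.85 and 0.34). They stood below it for Ednrb and Lrrn1 (-0.75 and -0.99). Ednrb in D9 NFIAn replicate 1 was 9980, 9740 and 6640 in p1, p2 and pM, beside group means of 7651, 5717 and 4756. The D9 shares therefore depend on which replicates a group held. Without the 18 libraries of high sum the Ednrb D5 to D7 step was 0.81 in place of 0.54.

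**Figure D2:**
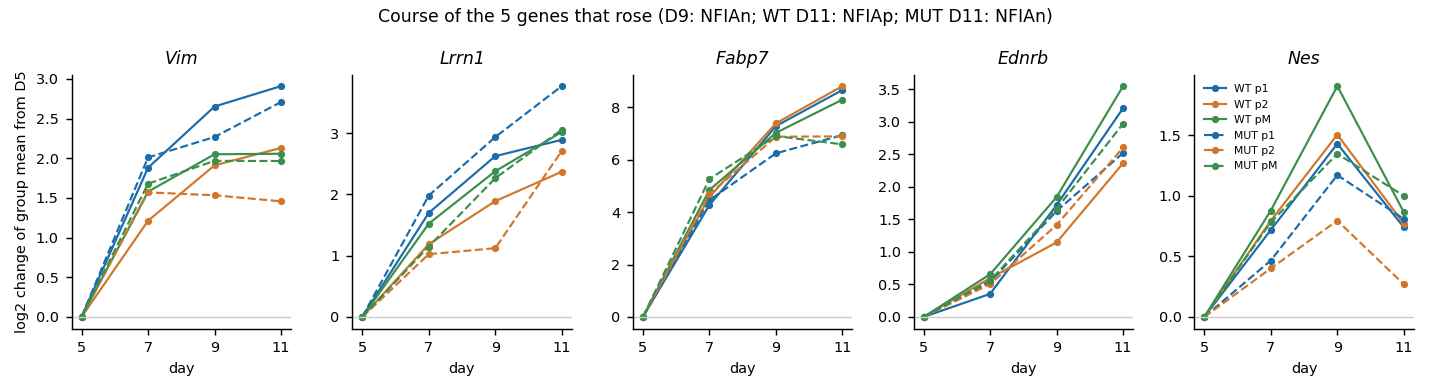
Lines give the log2 change of each group mean from D5 (y axis) by day (x axis) for the 5 genes that rose, solid for WT and dashed for MUT, coloured by domain, with D9 taken from NFIAn cells. In WT, Vim, Lrrn1 and Fabp7 climbed most steeply before D9. In both genotypes the Ednrb lines stood higher at D11 than at D9 and Nes turned down after D9 in every line. The last step of the WT lines goes from NFIAn to NFIAp cells. Within WT NFIAp cells, mean Ednrb went from 11364 at D9 to 11863 at D11 in p2 and from 8231 to 14238 in pM.

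Vim RNA was abundant at D5 and rose 4.16 to 7.51-fold by D11.
At WT D5, Vim stood at 4369.9, 4153 and 3568 in p1, at 5103, 6639 and 5574 in p2 and at 6053 and 4982 in pM. At WT D11 it stood at 42537 and 21396 in p1, at 31409.9 and 20089.7 in p2 and at 26268 and 19871 in pM. In each domain both D11 libraries lay above every D5 library; values here and below are normalised counts in order of replicate number.
The log2 change was 2.91 ± 0.33 in p1 (adjusted p = 1.5e-09), 2.13 ± 0.33 in p2 (adjusted p = 2e-06) and 2.06 ± 0.36 in pM (adjusted p = 2.5e-05).
At D7 Vim ranged from 10868 to 21910.4 with a median of 13684 over 9 WT libraries. At D9 it ranged from 18095 to 28892 with a median of 23607 over the 8 NFIAn libraries, and from 19808 to 29887 with a median of 23425 over the 6 NFIAp libraries.
The D5 to D7 step was 1.56 ± 0.18 (adjusted p = 2.6e-09), the D7 to D9 NFIAn step 0.65 ± 0.18 (adjusted p = 0.0093), and the D9 NFIAp to D11 step 0.01 ± 0.23 (adjusted p = 0.99).
Without the 18 libraries of high sum the D7 to D9 NFIAn step of Vim was 0.69 with an adjusted p of 0.077.

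Nes rose to D9 and fell afterwards.
In WT cells of D5, Nes stood at 597, 967 and 645 in p1, at 588, 939.6 and 597 in p2 and at 945 and 725 in pM. By WT D11 it stood at 1140.1 and 1265 in p1, at 1426 and 973 in p2 and at 1741 and 1305 in pM.
The ranges did not overlap within any domain, and the log2 changes were 0.74 ± 0.29 in p1 (adjusted p = 0.051), 0.77 ± 0.29 in p2 (adjusted p = 0.045) and 0.86 ± 0.32 in pM (adjusted p = 0.046).
At D7 Nes went from 739.9 to 1766 with a median of 1379.7 over 9 WT libraries. At D9 it went from 1776 to 3379 with a median of 2025 over the 8 NFIAn libraries, and from 1999 to 3592 with a median of 2879.5 over the 6 NFIAp libraries.
Averaged over p2 and pM, Nes fell by 1.02 ± 0.21 from D9 NFIAp to D11 (adjusted p = 0.00052), with no overlap in either.
The earlier steps were 0.80 ± 0.16 to D7 (adjusted p = 0.00016) and 0.82 ± 0.16 from D7 to D9 NFIAn (adjusted p = 0.00018).
The calls between D5 and D11 in p2 and pM were lost in edgeR on recovered reads (adjusted p = 0.075 and 0.09) and without any 1 of the 4 pM libraries or 3 of the 5 p2 libraries (WT D11 p2 replicate 2, WT D5 p2 replicates 1 and 3).
Without the 18 libraries of high sum, the D7 to D9 NFIAn step was 0.56 with an adjusted p of 0.095.

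Other intermediate filament genes went different ways between WT D5 and D11: of 10 tested from a list of 11, 2 were higher and 3 lower in p1 (Nefl and Nefm; Krt8, Krt19 and Des), 4 and 1 in p2 (Ina, Nefl, Nefm and Prph; Des), and 1 and 2 in pM (Nefl; Krt18 and Des).
Their median log2 change was -1.24, -0.74 and -1.07. Des lost its p1 and p2 calls in edgeR on recovered reads (adjusted p = 0.08 and 0.22). It lost them with the compared groups alone too (adjusted p = 0.098 and 0.18). In p2 its call was also lost without the filter and with the correlation of same-numbered libraries (adjusted p = 0.058 and 0.068). The Krt18 call in pM was lost in edgeR and with the compared groups alone (adjusted p = 0.087 and 0.29).
Krt8, a keratin of simple epithelia, fell from a mean of 724 to 17.2 in p1, a log2 change of -5.4, and in p2 and pM it went from 309 to 73.6 and from 197 to 35.3 without passing the test.
Nefm, a neurofilament of neurons, went from 0.961 to 34.1 in p1, a change of 3.97 that did not pass without WT D11 p1 replicate 3 (2.96).
Gfap, the filament gene of mature astrocytes, stayed between 0 and 9.24 normalised counts over the 66 libraries.

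Fabp7 had the largest change of the members, 405-fold in p1, 449-fold in p2 and 314-fold in pM between WT D5 and D11.
Its starting level was low: at WT D5, Fabp7 stood at 173, 212 and 300.3 in p1, at 229, 269 and 188 in p2 and at 305 and 266 in pM. By WT D11 it stood at 152584 and 53685 in p1, at 167158 and 62519 in p2 and at 134038 and 60175 in pM.
The lowest D11 library was far above the highest D5 library, at 305, and in each domain replicate 2 lay above replicate 3 at D11.
On the log2 scale the changes were 8.66 ± 0.70 in p1 (adjusted p = 1.6e-13), 8.81 ± 0.70 in p2 (adjusted p = 9.9e-14) and 8.30 ± 0.77 in pM (adjusted p = 1.2e-11).
At D7 Fabp7 spanned 2308 to 16959 with a median of 4835 over 9 WT libraries. At D9 it spanned 23573 to 58685 with a median of 32437 over the 8 NFIAn libraries, and from 45735 to 105741 with a median of 86590.0 over the 6 NFIAp libraries.
Per step, the log2 change was 4.57 ± 0.38 from D5 to D7 (adjusted p = 2.8e-13), 2.67 ± 0.38 from D7 to D9 NFIAn (adjusted p = 1e-06) and 0.31 ± 0.50 from D9 NFIAp to D11 (adjusted p = 0.75).
Most of the Fabp7 change on the log2 scale was therefore already present in D9 cells sorted as NFIAn. Nfia RNA averaged 194 to 476 in the WT D9 NFIAn groups, beside 20.1 to 23.8 in the WT D5 groups. Nfib RNA averaged 149 to 271 and 1.45 to 2.87 in them. Whether Fabp7 rose before these RNAs was not tested.
Among 23375 genes ranked by mean normalised count per kilobase of exon, Fabp7 ranked between 4013 and 4558 in the WT D5 groups and between 2 and 5 in the WT D11 groups, where it held 0.415 to 0.508% of all normalised counts.

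Carriers related to Fabp7 did not share 1 direction.
Among fatty acid, retinol and retinoic acid binding proteins, Rbp2 was higher at WT D11 than at D5 by 4.5, 5.53 and 5.53 on the log2 scale in p1, p2 and pM, Fabp4 by 3.38 in p1, and Fabp3 by 2.8 in p2 and 3.22 in pM.
Crabp1 was lower in pM, with a log2 change of -2.2.
Crabp2, a retinoic acid carrier, was 71200, 61100 and 68100 at D5 and fell, with log2 changes of -2.84, -3.61 and -4.6. By step its change was -0.71 from D5 to D7, -0.66 from D7 to D9 NFIAn (not called) and -2.49 from D9 NFIAp to D11. Retinoic acid was in the medium only until day 5, and its part in the fall of Crabp2 was not tested.

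Of the rising members, Ednrb had made the smallest share of its WT D5 to D11 change by D7 and by D9 in NFIAn cells. Whether it rose later than the others was not tested.
At WT D5, Ednrb stood at 2465, 2304 and 1977 in p1, at 2766, 2278 and 1942 in p2 and at 1229 and 1205 in pM. At WT D11 it stood at 14048 and 30559 in p1, at 12124 and 11601 in p2 and at 13931 and 14544 in pM.
Every D11 library lay above every D5 library, p1 replicate 3 by the widest margin, and at D5 pM stood below p1 and p2.
The log2 change was 3.21 ± 0.42 in p1 (adjusted p = 4.9e-08), 2.36 ± 0.42 in p2 (adjusted p = 2.2e-05) and 3.55 ± 0.46 in pM (adjusted p = 6.2e-08).
At D7 Ednrb extended from 1211 to 5046 with a median of 2607 over 9 WT libraries. At D9 it extended from 2876 to 9975 with a median of 5894 over the 8 NFIAn libraries, and from 5169 to 14412 with a median of 9839.5 over the 6 NFIAp libraries.
The D7 to D9 step was 1.03 ± 0.23 to NFIAn cells (adjusted p = 0.00096) and 1.80 ± 0.27 to NFIAp cells (adjusted p = 2e-06); from D9 NFIAp to D11 it was 0.53 ± 0.30 (adjusted p = 0.28).
Without the 18 libraries of high sum, in which Ednrb was relatively low, its D5 to D7 step was 0.81 and passed with an adjusted p of 0.00021.
Of the ligands, the other receptor and the processing enzymes of the endothelin pathway (6 genes, 5 tested), Edn3 alone was called, lower in p1 and p2, with means of 70.3 and 64.8 at D5 and 5.93 and 4.71 at D11; both calls were lost in edgeR on recovered reads and in a fit of the compared groups alone, as well as without single libraries of either day.
Ednra, the other endothelin receptor, ranged from 0 to 586 over the libraries.

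Lrrn1 rose in rank per kilobase of exon, from 4468 to 5994 of 23375 genes over the WT D5 groups to 1096 to 1986 over the WT D11 groups.
At WT D5, Lrrn1 stood at 473, 369 and 278 in p1, at 907, 588 and 459 in p2 and at 655 and 729 in pM. At WT D11 it stood at 2545 and 2898 in p1, at 2584 and 4066 in p2 and at 5216 and 6043 in pM.
No D11 library overlapped the D5 libraries of its domain, and p1 was lowest at D5.
Changes on the log2 scale were 2.89 ± 0.47 in p1 (adjusted p = 3.5e-06), 2.37 ± 0.47 in p2 (adjusted p = 0.00011) and 3.02 ± 0.51 in pM (adjusted p = 1.3e-05).
At D7 Lrrn1 lay from 769.6 to 2870.0 with a median of 1704 over 9 WT libraries. At D9 it lay from 1642 to 5246 with a median of 2220.3 over the 8 NFIAn libraries, and from 2064 to 4533 with a median of 3187 over the 6 NFIAp libraries.
Its D5 to D7 step was 1.47 ± 0.25 (adjusted p = 1.8e-05) and its D7 to D9 NFIAn step 0.83 ± 0.25 (adjusted p = 0.019), with overlapping libraries in all 3 domains in the latter.
The D7 to D9 NFIAp step, 0.86 ± 0.29 (adjusted p = 0.039), had an adjusted p of 0.13 in edgeR on recovered reads.
The related Lrrn genes did not share 1 direction. Lrrn3 rose by 3.11 in p1 and 2.36 in p2 and was at means of 422 and 864 in pM at D5 and D11, where it did not pass the test. The p2 call of Lrrn3 was lost without WT D11 p2 replicate 3 (2.13). Lrrn4 was lower at D11, with log2 changes of -5.26 in p1 (adjusted p = 0.00019) and -4.49 in p2 (adjusted p = 0.0015). In pM its change was 1.35 and did not pass.

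Prom1 was present from the start and was not called as changed between WT D5 and D11 unless the fit took in the replicate number.
At WT D5, Prom1 stood at 4356, 3109 and 3025 in p1, at 4864, 3343 and 3996 in p2 and at 3344 and 3968 in pM. At WT D11 it stood at 1821 and 2707 in p1, at 2249 and 2781 in p2 and at 1954 and 2629 in pM.
The 2 D11 libraries of each domain lay below all of its D5 libraries, but the log2 differences, -0.63 ± 0.27 in p1 (adjusted p = 0.077), -0.68 ± 0.27 in p2 (adjusted p = 0.058) and -0.68 ± 0.30 in pM (adjusted p = 0.1), did not pass the threshold.
With an estimated correlation of same-numbered libraries Prom1 was called lower in p2 (-0.68, adjusted p = 0.036) and pM (-0.77, adjusted p = 0.033). With the replicate number as a block it was called lower in pM (-0.68, adjusted p = 0.042). Its paralog Prom2 stayed between 0 and 0.958 normalised counts in all 66 libraries.

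Cdh2 was likewise present throughout.
At WT D5, Cdh2 stood at 3024, 2412 and 2821 in p1, at 2906, 3002 and 2474 in p2 and at 2628 and 2142 in pM. At WT D11 it stood at 2888 and 2507 in p1, at 2498 and 2774 in p2 and at 2302 and 2602 in pM.
The D5 and D11 libraries overlapped in every domain, with log2 differences of -0.03 ± 0.39 in p1 (adjusted p = 0.99), -0.08 ± 0.39 in p2 (adjusted p = 0.92) and 0.04 ± 0.43 in pM (adjusted p = 0.98).
With standard errors of 0.39 to 0.43, small changes of Cdh2 could not be seen.
Among other cadherins, 5, 7 and 5 of 16 tested were higher in p1, p2 and pM and 2, 0 and 0 lower (Cdh3 and Cdh24 in p1), with median log2 changes of 0.96, 1.5 and 2.06.
Cdh11 rose by 2.68, 3.45 and 4.71 on the log2 scale and Cdh13 by 4.11, 6.43 and 6.83, from means of 20.9 to 36.1 at D5 to 511 in p1, 2250 in p2 and 2480 in pM.
Of 21 tested genes of the apical junction, 5 were called in each domain, near the share of all genes called there (27.7, 25.8 and 20.4%): Ctnna2 (αN-catenin, a partner of N-cadherin) was higher in all 3, by 2.71, 3.29 and 3.09, and Crb1 in p1 and pM; Ocln and Cldn6, of tight junctions, were lower in all 3, Crb2 in p1, Ctnna1 in p2 and pM and Tjp1 in p2.
Ocln averaged 92, 50.7 and 69.7 at D5 and was at 0.452 or below at D11.

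Msi1 differed from the other 7 members in level.
At WT D5, Msi1 stood at 20.4, 9.57 and 16.6 in p1, at 41.8, 24.6 and 51.3 in p2 and at 19.0 and 27.8 in pM. At WT D11 it stood at 9.71 and 3.62 in p1, at 8.03 and 28.3 in p2 and at 10.8 and 26.4 in pM.
Over all 66 libraries it reached at most 82.4 and was 0 in 1 library, MUT D7 pM replicate 3, whereas every other member exceeded 100 in every library, so the files do not show Msi1 as an abundant RNA of these cells.
Its D5 and D11 libraries overlapped in each domain, and the log2 differences were -1.17 ± 1.03 in p1 (adjusted p = 0.43), -1.25 ± 1.03 in p2 (adjusted p = 0.41) and -0.42 ± 1.12 in pM (adjusted p = 0.86), so a 2-fold change was not detectable.
The related gene Msi2 ranged from 934 to 2761 with a median of 1629.8 over the same libraries.

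At D9, p2 and pM were sorted by NFIA within the same culture day, and no member was called between NFIAp and NFIAn (0 of 8, with 0.204% of genes called).
Ednrb and Fabp7 had an unadjusted p under 0.05, and edgeR on recovered reads called 0 members.
The absence of calls depended on the fit: with an estimated correlation of same-numbered libraries Ednrb was called (1.01, adjusted p = 0.00068; 2.89% of genes called), as it was without WT D9 p2 NFIAn replicate 1 (1.16, adjusted p = 0.037). With the replicate number as a block within day, Ednrb (1.05, adjusted p = 1.1e-05) and Fabp7 (0.89, adjusted p = 0.00095) were both called. The 5 same-numbered pairs of gate libraries deviated together to unlike degrees (r from 0.07 to 0.78).
Fabp7 in p2 was at 30274, 57917 and 31774 in NFIAn and at 45735, 100796 and 72384 in NFIAp cells, and in pM at 33101 and 42037 (replicates 1 and 3) and 57661, 105741 and 102809.
The gates overlapped in p2 and not in pM, yet within each of the 5 same-numbered pairs NFIAp was higher, by 1.51 to 2.45-fold; the log2 difference was 1.03 ± 0.47 (adjusted p = 0.52).
Ednrb in p2 was at 9743, 4038 and 3369.7 in NFIAn and 14412, 7863 and 11816 in NFIAp cells, and in pM at 6636 and 2876 and 14115, 5169 and 5410.2.
Here too the gates overlapped while each of the 5 pairs was higher in NFIAp, by 1.48 to 3.51-fold, for a log2 difference of 0.93 ± 0.28 (adjusted p = 0.19).
For Vim, Nes, Lrrn1, Prom1 and Cdh2 the difference lay between -0.11 and 0.14, and for Msi1 it was -0.87 ± 0.69 (adjusted p = 0.84), lower in NFIAp in 4 of 5 pairs.
Of 23 other radial glial genes tested, Hopx alone was called, higher in NFIAp by 1.94 ± 0.41 (adjusted p = 0.027), a call lost without the 18 libraries of high sum (1.61) and without any 1 of 5 single libraries (WT D9 p2 NFIAn replicate 3, p2 NFIAp replicates 1 and 2, pM NFIAn replicate 3 and pM NFIAp replicate 1).
Mesenchyme markers summed to 240 to 425 in the p2 NFIAn and 1680 to 3480 in the p2 NFIAp libraries; their part in the differences was not tested.

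**Figure D3:**
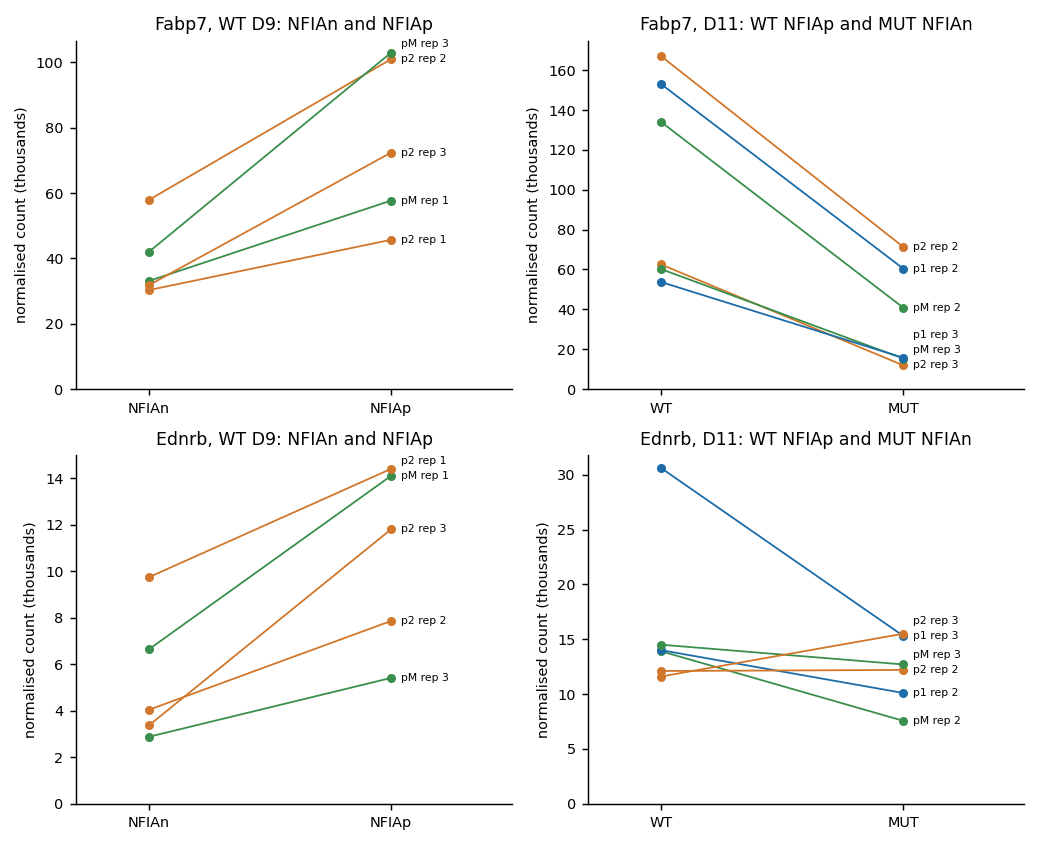
Lines join libraries of the same domain and replicate number, with normalised counts (divided by 1000) on the y axis, for Fabp7 and Ednrb in WT D9 NFIAn and NFIAp cells (left) and at D11 in WT NFIAp and MUT NFIAn cells (right); blue is p1, orange p2 and green pM. All 5 lines climb from NFIAn to NFIAp for both genes, while from WT to MUT all 6 Fabp7 lines drop and the Ednrb lines do not share a direction.

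Between domains, calls of members depended on how same-numbered libraries were treated.
Over WT NFIAn cells at D5, D7 and D9 and NFIAp cells at D11, no member was called between p2 and p1 (0 of 8, with 1.83% of genes called) or between pM and p2 (0 of 8, with 2.46% called); edgeR on recovered reads also called 0 in both, and 1 and 3 members had an unadjusted p under 0.05.
The 1 was Msi1, higher in p2 than in p1 by 1.09 ± 0.49 (adjusted p = 0.33), with 1.28 at D5, 0.29 at D7, 1.58 at D9 and 1.21 at D11.
The 3 were Nes, 0.40 ± 0.15 in pM minus p2, Lrrn1, 0.51 ± 0.23, and Ednrb, -0.44 ± 0.21 (adjusted p = 0.17, 0.37 and 0.43).
Same-numbered p2 and pM libraries of a day deviated together, and with that number as a block within day all 3 were called: Nes 0.38 (adjusted p = 0.011), Lrrn1 0.48 (adjusted p = 0.014) and Ednrb -0.50 (adjusted p = 0.0013), where 6.31% of genes were called.
With an estimated correlation of those libraries the same 3 were called (adjusted p = 0.012, 0.041 and 0.032), where 6.18% of genes were.
Nes at D9 NFIAn was 1918, 2132 and 1846 in p2 and 3379 and 2843 in pM, without overlap.
The Ednrb difference was -0.92 at D5, -0.86 at D7, -0.22 at D9 and 0.26 at D11.
A test of whether the D5 to D11 change differed among p1, p2 and pM called none of the members (limma F test, adjusted p of 0.99 or above for all 8, none at an unadjusted p under 0.05, none in edgeR; 0.891% of genes called).

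In MUT, the same 5 members rose between D5 and D11 as in WT (5 of 8, with 46% of genes called and 24.1% as higher).
The mean change over the 3 domains was 6.81 ± 0.41 for Fabp7, 3.18 ± 0.27 for Lrrn1, 2.70 ± 0.24 for Ednrb, 2.04 ± 0.19 for Vim and 0.69 ± 0.17 for Nes, all with adjusted p of 0.00063 or below.
Fabp7 ranged from 152 to 353 in the 9 MUT libraries of D5, from 3435 to 23017 in the 9 of D7 and from 11861 to 71342 in the 6 of D11.
Ednrb, over the same libraries, ranged from 1063 to 2541, from 1215 to 4031 and from 7556 to 15508.
For both genes D5 and D11 did not overlap. Within domains, the D5 and D7 libraries of Ednrb overlapped in p1 and pM. In p2 they did not, at 2016 to 2541 and 2552 to 3651.
These MUT cells were NFIAn at both ends, so in them the rise was measured without a change of gate. Their Nfia RNA did change, from means of 18.3 to 38.8 at D5 to 1070 to 1940 at D11. Nfib RNA went from 2.78 to 8.1 at D5 to 890 to 1430 at D11. The unchanged gate in MUT is therefore not an unchanged level of Nfia or Nfib RNA.
At D5 and at D7, with MUT and WT both NFIAn, no member was called (0 of 8 each, with 0.458 and 2.03% of genes called; no unadjusted p under 0.05 and 0 calls in edgeR), and Fabp7 differed by 0.05 ± 0.38 and 0.28 ± 0.36.
At D9, again both NFIAn, 0 of 8 were called (0.7% of genes; edgeR 0), with Nes at an unadjusted p under 0.05.

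In p1 at D9 NFIAn, Nes was 1776, 2231 and 1836 in WT and 1712 and 1733 in MUT.
In p2 it was 1918, 2132 and 1846 in WT and 1434 in MUT, which had replicate 3 only.
In pM it was 3379 and 2843 in WT and 2122 and 1716 in MUT.
Each MUT library lay below all WT libraries of its domain.
The log2 difference was -0.44 ± 0.19 (adjusted p = 0.41), and 0.072 was the adjusted p with the replicate number as a block within day.
Fabp7 at D9 was 12813 to 45241 in the 5 MUT libraries and 23573 to 58685 in the 8 WT NFIAn libraries, with a log2 difference of -0.51 ± 0.46 (adjusted p = 0.86).

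At D11, Fabp7 was lower in MUT, the 1 member of 8 called (4.14% of genes called, 2.34% as lower).
WT NFIAp libraries held 152584 and 53685 in p1, 167158 and 62519 in p2 and 134038 and 60175 in pM, and MUT NFIAn libraries 60418 and 15652, 71342 and 11861 and 40846 and 15341, replicates 2 and 3 in turn.
The genotypes overlapped in p1 and p2 with replicate 2 above replicate 3 in both, and not in pM; at equal replicate number MUT was lower in 6 of 6 pairs, by 2.34 to 5.27-fold.
The log2 difference was -1.74 ± 0.45, or 3.34-fold (adjusted p = 0.014); with the replicate number as a block within day the adjusted p was 4.3e-11.
This call was lost without replicate 3 of any MUT D11 group or replicate 2 of any WT D11 group (log2 difference -1.55 to -1.31, adjusted p 0.069 to 0.12), in a fit of the compared groups alone (adjusted p = 0.31), and with an estimated correlation of same-numbered libraries (adjusted p = 0.058), where 0 of 8 members and 0.681% of genes were called.
Even so, Fabp7 in MUT ranked 12 to 22 per kilobase among 23375 genes.
WT cells were NFIAp and MUT cells NFIAn at D11, so genotype and gate cannot be told apart here.
The change from D5 to D11 differed between MUT and WT by -1.78 ± 0.59 for Fabp7 (adjusted p = 0.19); 0 of 8 members were called for this difference (0.77% of genes; edgeR 0; Fabp7 and Prom1 at an unadjusted p under 0.05).

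For the other members at D11 the log2 difference of MUT from WT was -0.32 ± 0.21 for Vim, -0.35 ± 0.27 for Ednrb, -0.03 ± 0.18 for Nes and 0.32 ± 0.29 for Lrrn1, and 0.40 ± 0.17 for Prom1, 0.42 ± 0.25 for Cdh2 and 1.60 ± 0.65 for Msi1, with adjusted p of 0.17 to 0.96.
With the replicate number as a block within day, 5 of 8 members were called (20.2% of genes): Fabp7 and Vim (adjusted p = 0.014) lower, and Prom1 (0.0051), Cdh2 (0.023) and Msi1 (0.028) higher in MUT.
Ednrb (0.05, not under the threshold), Lrrn1 (0.17) and Nes (0.91) were not called.
With the estimated correlation none of the 8 was called.
Ednrb in p2 was 12124 and 11601 in WT and 12224 and 15508 in MUT, and its level in MUT exceeded WT in 2 of 6 pairs.
Neuron markers summed to 27000 to 32800 in MUT and 21700 to 38300 in WT at D11, and cell cycle markers to 29600 to 47600 and 18300 to 39200, with 1 of 10 and 2 of 8 called higher in MUT; their part was not tested.

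By library in p1, p2 and pM, Vim at MUT D11 was 36146 and 20765, then 24925 and 9668, then 27194 and 16298, lower than the same-numbered WT library in 5 of 6 pairs.
Prom1 was 2649.5 and 3389, 3641 and 3735 and 1921 and 3583, above WT in 5 of 6 pairs.
In the same order, Cdh2 was 2784 and 4348, 2927 and 3425 and 2592 and 5416, also above WT in 5 of 6.
For each of these 3 genes, libraries of the genotypes overlapped in at least 2 of the 3 domains.
Msi1 was 26.9 and 62.0, 22.9 and 28.6 and 43.9 and 56.6, above WT in 6 of 6 pairs.
Lrrn1 was 3239.7 and 4584, 2706 and 5548 and 4960.1 and 8394, above WT in 5 of 6 pairs, and Nes 1294 and 1389.9, 959.6 and 1035 and 1664 and 1352, above WT in 4 of 6.
None of these 6 differences was called without the block.

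**Figure D4:**
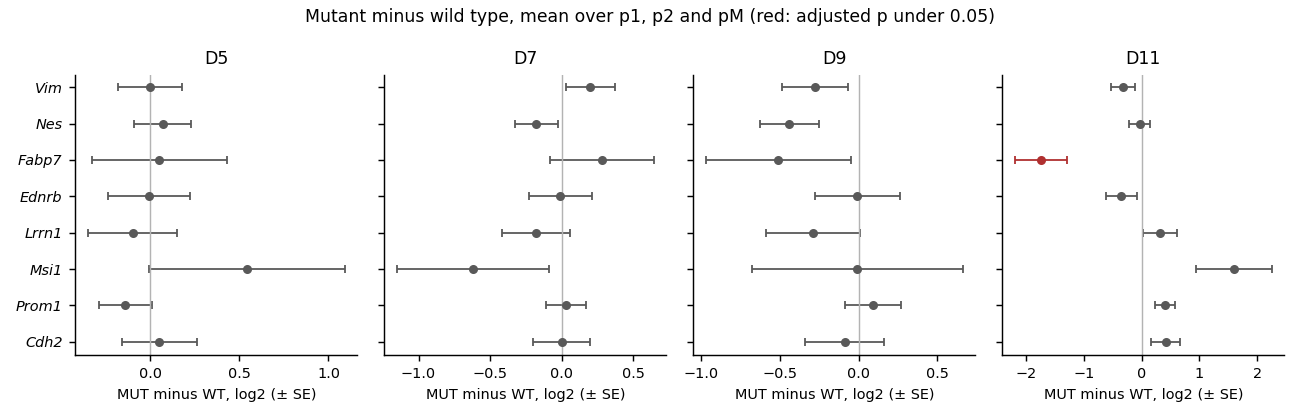
Points give the MUT minus WT difference (log2, x axis, mean over p1, p2 and pM) with its standard error for the 8 members at D5, D7, D9 and D11, red where the adjusted p was under 0.05; the x axes differ between panels. At D5, D7 and D9 no member is red, and at D11 Fabp7 alone is, at -1.74.

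A wider list of 24 radial glial genes, 23 of them tested, gives the setting.
In WT from D5 to D11, 15 were higher and 0 lower in p1, 13 and 2 in p2 and 11 and 2 in pM, with medians of 2.09, 2.50 and 0.96 beside 0, 0.04 and 0.01 over all genes.
Ttyh1, a membrane protein of neural stem cells, rose by 7.11, 7.38 and 7.97, Hopx, a transcriptional cofactor, by 5.97, 7.67 and 9.28, and the proteolipid Gpm6b by 6.82, 5.75 and 5.43.
Bcan, a matrix proteoglycan, rose by 6.54, 6.32 and 7.29.
The 2 that fell in p2 and pM were Pax6 (-1.24 and -1.13) and Gli3 (-2.22 in both), patterning transcription factors; in pM the Pax6 call was lost without WT D11 pM replicate 2 and the Gli3 call without WT D11 pM replicate 3 or WT D5 pM replicate 2.
At D11, 7 of the 23 were lower and 1 higher in MUT, with a median of -0.23 beside 0: Slc1a3, Dbi, Aldh1l1 and Aldoc were lower, as were Ttyh1 (-1.21), Hopx (-1.51) and Bcan (-4.69), and Mfge8, a secreted glycoprotein, was higher by 0.61.
Bcan averaged 507 to 1160 in the WT groups and 30.3 to 49.5 in MUT, while Gpm6b averaged 6920 to 12200 and 7310 to 12000.
The Hopx call was lost without replicate 3 of any MUT D11 group or replicate 2 of any WT D11 group, and the Hopx and Mfge8 calls in a fit of the compared groups alone. Both were also lost with an estimated correlation of same-numbered libraries (adjusted p = 0.18 and 0.068). As for the members, genotype and gate cannot be told apart at D11.

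The tested genes whose group means were most like each member's, by Pearson's r of mean log2 levels over the 26 groups and given with no test, were Hist3h2ba (0.987), Basp1 (0.984) and Yipf5 (0.983) for Fabp7 and Jam2 (0.968), Hist3h2ba (0.965) and Tmem50a (0.965) for Vim.
For Ednrb they were Schip1 (0.961) and Astn1 (0.95), and for Lrrn1 Atat1 (0.976), Gpm6b (0.975) and Dpysl3 (0.965).
Nes was nearest to Asl (0.899), Sec13 (0.898) and Mrps23 (0.893), and Cdh2 to Dctn1 (0.907), Ammecr1l (0.866) and Ripk1 (0.84).
Prom1 was nearest to Pitpnb, B3gnt7 and Prr12 (0.833 each) and Msi1 to Daxx (0.831) and Zfp385a (0.801).
The 26 means share libraries, scaling and the replicate split above.
Ordered by level per kilobase at WT D5, Vim ranked first (1154 to 1705), then Prom1 (2187 to 2574), Ednrb (2254 to 3530), Cdh2 (3097 to 3447), Fabp7 (4013 to 4558), Lrrn1 (4468 to 5994) and Nes (5327 to 5804), and Msi1 last (11229 to 12395), with overlap between Prom1 and Ednrb, Ednrb and Cdh2, Fabp7 and Lrrn1, and Lrrn1 and Nes.
At WT D11 the order was Fabp7 (2 to 5), Vim (298 to 355), Ednrb (385 to 641), Lrrn1 (1096 to 1986), Prom1 (3196 to 3414), Cdh2 (3307 to 3455), Nes (3997 to 4539) and Msi1 (12479 to 13522), and the ranges of Prom1 and Cdh2 alone overlapped.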

How the data were processed

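Polyadenylated RNA of 66 sorted libraries was analysed from the deposited table of normalised counts (unit: signal), 24410 symbols. The submitters' processing notes name the build mm10 and DESeq2, with no version; aligner and strandedness are not given in the sources used here. All values divided by 1 read per library were whole within 0.01 (100% of values), so the reads behind the signal were recovered. Depth was 8.738 to 30.83 M reads. The lowest chi-square per degree of freedom between replicates of a group was 25.49 over 55 pairs, so no library was counted as deposited more than once.

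Members were matched by symbol. limma 3.58.1 (R 4.3.3) with a variance trend was fitted to log2(normalised count + 1) with a mean for each of 26 groups over all 66 libraries, for the 15714 genes at 10 or more in at least 2 libraries, with Benjamini-Hochberg adjustment over all of them at 0.05, two-sided. Fold changes are on that scale and understate changes of low genes. Errors after ± are standard errors of the fit. The members, lists, markers and tests were chosen with earlier results of these data known. Named genes were the 8 members, up to 4 genes of each list with the largest mean WT change among those called, paralogs, and the 3 genes most like each member; Mfge8, Pax6, Gli3, Slc1a3, Dbi, Aldh1l1, Aldoc and the other genes behind counts of 5 or fewer were named after their values were seen. Some genes that the rule takes in are not reported here. Ranks use GENCODE M21 exonic length (23375 symbols matched, 95.8%). Promoters are RefSeq's on GRCm38.p6, with 6 members matched.

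Same-numbered libraries were checked for deviating together over 5000 genes. Every pair had r above 0.1 for pM against p2 (9 pairs, 0.47 to 0.88). So did every pair for MUT against WT at D7 (9, 0.46 to 0.91), D9 (4, 0.11 to 0.86) and D11 (6, 0.26 to 0.72). In these comparisons the fit with the number as a block within day is given beside the result where it changes it. It is also given for the gates at D9 (5 pairs, 0.07 to 0.78), where not every pair had r above 0.1. Alternatives were edgeR 4.0.16 (quasi-likelihood) on recovered reads, TMM scaling, a pseudocount of 8, testing without the filter, the compared groups alone, the replicate block, a correlation of libraries of 1 genotype, day and number, leaving out the 18 libraries of high sum, and leaving out each library. The fit was tested on simulated data. Figures were drawn with matplotlib 3.10.9.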

Additional observations from a re-analysis of the deposited data

How the results depend on the processing

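Of 261 refits of the 35 called member differences under settings other than leaving out 1 library, 238 kept direction and call, 23 lost the call and 0 changed direction. Leaving out 1 library at a time, 349 of 375 kept both and 26 lost the call. Among differences not called, 26 of 755 changed sign and 22 became called (130 and 5 of 1433 when 1 library was left out). The members called changed as follows. Between WT D5 and D11, Nes in p2 and pM lost its calls without the filter, with TMM scaling, in edgeR and with the compared groups alone. Nes in p1 gained a call with the replicate block and with the library correlation (adjusted p = 0.032 and 0.029). Prom1, as lower, gained calls in p2 and pM with the correlation and in pM with the replicate block. Ednrb from WT D5 to D7 gained a call without the 18 libraries of high sum (0.81, adjusted p = 0.00021). Cdh2 in MUT from D5 to D11 gained a call with the replicate block (0.51, adjusted p = 0.019). From D7 to D9 NFIAp the number of members called was 3 with the compared groups alone and 2 without the 18 libraries of high sum, against 5. Further losses of Lrrn1 calls from D7 to D9 are given above. From D7 to D9 NFIAn it was 3 without those 18, against 5. From D9 NFIAp to D11 it was 2 with the replicate block, against 1. Between gates it was 1 with the replicate block, 2 with the block within day (Ednrb 1.05, Fabp7 0.89), 1 with the library correlation and 0 to 1 when 1 library was left out (Ednrb 1.16, adjusted p = 0.037, without WT D9 p2 NFIAn replicate 1), against 0. Between pM and p2 it was 3 with the block within day and 3 with the correlation, against 0. For MUT against WT at D11 it was 0 with the compared groups alone, 5 with the block within day, 0 with the correlation and 0 to 1 when 1 library was left out, against 1.

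Differences near 0 changed sign. Cdh2 between WT D5 and D11 was -0.02 in pM with TMM scaling and with edgeR, and -0.1 to 0.19 when 1 library was left out (below 0 without replicate 3 of either day); in p1 it was 0.14 with the replicate block, and 0.08 and 0.04 without WT D11 p1 replicate 3 or WT D5 p1 replicate 1; in p2 it was 0.08 with the replicate block. Nes in MUT against WT at D11 was 0 with TMM scaling and -0.12 to 0.06 when 1 library was left out (above 0 without MUT pM replicate 3, WT p2 replicate 2 or WT pM replicate 2). From D9 NFIAp to D11, Ednrb was -0.13 without the 18 libraries and Fabp7 was -0.04 without WT D11 p2 replicate 2 (-0.04 to 0.67 over the libraries left out). The cause was not tested.

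All genes called for MUT against WT at D11 numbered 650, and 3180 with the block within day, 129 with the compared groups alone and 107 with the correlation; between gates 32, 543, 7 and 454. For MUT against WT at D7 they were 319 and 2275 with the block, and at D9 110 and 784. For pM against p2 they were 386 and 992. MUT against WT at D9 was not run without the 18 libraries, since they hold most of that day. TMM scaling moved the median over all genes by at most 0.04. Msi1 is limited by its low counts and MUT D9 p2 by its single library.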

Other observations

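Replicates of a day differed along gene length at D9 and D11 as well as at D7. Among the 3021 shortest genes by exonic length (70 to 2330 bases), the median log2 difference was 0.6 for D7 replicate 3 against replicates 1 and 2, 0.31 for D9 replicates 2 and 3 against replicate 1, and 0.3 for D11 replicate 2 against replicate 3. Among the 3019 longest, from 7412 bases, it was -0.54, -0.33 and -0.22. At D9 Fabp7, the shortest member, was higher in replicates 2 and 3 in 7 of 7 groups by a median of 0.85, while Lrrn1, Ednrb and Cdh2 were lower in 7 of 7, by -0.99, -0.75 and -0.77. Vim, with 4743 exonic bases, was higher in 7 of 7 by 0.34, on the side of the short genes. The labels used here give no date or batch for the replicate numbers.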
